A study of Mus musculus with 4 samples.

Results

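Cholesterol and fatty acid synthesis is carried out by enzymes of the cytosol and endoplasmic reticulum that the cell makes in amounts matched to its lipid supply. The 32 genes described here encode these enzymes and the proteins that regulate them, and they were chosen by gene symbol from the 27998 genes of the count files. The set holds 7 genes of the mevalonate arm, 11 of the squalene and sterol arm, 6 regulators and sterol carriers, and 8 of the fatty acid arm. The mevalonate and squalene arms together are called the 18 sterol genes below. Unique molecular identifiers (UMIs, the counted RNA molecules) of all 32 were found in each library.

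Single-cell RNA sequencing was made on inner ear organoids, which mouse embryonic stem cells build as aggregates that hold otic tissue and hair cells beside many unrelated tissues. The 4 groups were Tmprss3KO-GFPKI (KO) organoids at day 35, Wild-Type R1/E (WT) organoids at day 35, KO organoids at day 25 and WT organoids at day 25, with 1 library per group. Both genotypes were of derived strain 129X1x129S1, and the KO carries a disrupted Tmprss3, a membrane serine protease gene linked to deafness, with an inserted GFP. The labels do not say how many clones or organoids a library holds, nor which part of Tmprss3 was removed, so its 3′ UMIs (5 and 8 in KO and WT at day 35, 7 and 18 at day 25) check nothing.

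Acetyl-CoA is joined into mevalonate, then into isoprenoid units, squalene and lanosterol, which a series of reductases and isomerases turns into cholesterol. When membrane sterol is low, SCAP carries the SREBP transcription factors to the Golgi for cleavage, and the fragments enter the nucleus and turn on most of these genes, while INSIG proteins hold SCAP back. Fatty acids are made from the same acetyl-CoA and are then elongated and desaturated, a program known for its strength in fat cells, while glia and skin are known for active sterol synthesis.

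The libraries held 7077 and 9250 barcodes in KO and WT at day 35, and 11307 and 9963 at day 25. Barcodes were kept where 500 genes or more were detected and mitochondrial transcripts took no more than 10% of UMIs. This left 6729 and 8166 cells in KO and WT at day 35, and 11190 and 9768 at day 25. Depth per kept cell had a median of 3089 to 6371 UMIs. Between 76 and 142 barcodes were found in both libraries of a pair. Cells were gated by 14 lists of 8 marker genes, a cell belonging to a type when it held at least 3 markers of that list and more than of any other, and types are called "-like". Cells with at least 3 markers of a further list made up 16.1% and 18.6% of kept cells in KO and WT at day 35, and 32.1% and 34.4% at day 25.

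Levels are UMIs summed over the cells in question and scaled to the sum over all genes of the same cells, as CPM. A gene is called higher or lower when the ratio is at least 1.5-fold and its exact 95% interval leaves out equality, among genes with at least 50 UMIs in the libraries compared. Intervals cover counting error only: with 1 library per group, no difference below has a replicate check or a test. In sums over a whole organoid, fewer cells of a type and less RNA per cell cannot be told apart.

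Promoters are shown first, since SREBP proteins act there together with the factor NF-Y, which binds the CCAAT box. RefSeq (GRCm38.p6) gave promoters for 25 of the 32 genes. Within 250 bases before the start, the letters CCAAT stood on either strand (ATTGG on the other) in 19 of the 25 (76%), against 37.49% of 27025 genes. The classical sterol regulatory element, searched as TCACNCCAC on both strands, stood in 1 of the 25 (4%), Hmgcs1, against 1.225% of genes. The promoters below belong to 4 genes on which results turn: Hmgcs1, the enzyme that commits acetoacetyl-CoA to mevalonate synthesis, Hsd17b7, a sterol ketoreductase, Insig1, the sterol-regulated anchor of SCAP, and Fasn, the fatty acid synthase. They end at or before the annotated gene and run 5′ to 3′ on the gene's strand, with CCAAT or ATTGG and, in Hmgcs1, the element TCACCCCAC in capitals.
Hmgcs1, chr13:119690101-119690350, plus strand, 250 bases:
Hmgcs1: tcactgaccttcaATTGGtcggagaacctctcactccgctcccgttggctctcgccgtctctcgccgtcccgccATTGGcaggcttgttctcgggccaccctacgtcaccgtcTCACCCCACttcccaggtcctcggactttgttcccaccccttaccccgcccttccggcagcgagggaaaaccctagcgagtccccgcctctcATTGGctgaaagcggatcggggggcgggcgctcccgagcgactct
Hsd17b7, chr1:169969242-169969405, minus strand, 164 bases:
Hsd17b7: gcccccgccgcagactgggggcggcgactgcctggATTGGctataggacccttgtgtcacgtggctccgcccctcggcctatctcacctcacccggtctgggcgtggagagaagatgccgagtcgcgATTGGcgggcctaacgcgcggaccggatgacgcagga
Insig1, chr5:28071182-28071362, plus strand, 181 bases:
Insig1: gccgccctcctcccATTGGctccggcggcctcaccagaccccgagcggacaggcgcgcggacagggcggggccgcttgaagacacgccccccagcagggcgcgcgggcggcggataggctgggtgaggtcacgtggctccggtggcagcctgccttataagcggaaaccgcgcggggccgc
Fasn, chr11:120824548-120824747, minus strand, 200 bases:
Fasn: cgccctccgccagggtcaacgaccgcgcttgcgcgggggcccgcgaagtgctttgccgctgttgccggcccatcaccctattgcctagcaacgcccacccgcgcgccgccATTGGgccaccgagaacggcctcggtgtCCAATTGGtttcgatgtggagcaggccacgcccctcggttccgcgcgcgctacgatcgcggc
In Fasn a CCAAT and an ATTGG overlap. The matches describe letters and were not tested as binding sites.

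Over all kept cells the 18 sterol genes summed to 880.5 and 885 CPM in KO and WT at day 35, and to 1016 and 1136 CPM at day 25. Pluripotent-like cells, not found in WT at day 35, held 25.0% of the sterol gene UMIs of KO at day 35. They held 13.4% of the UMIs over all genes there, and their part in the near-equal sums was not tested. The fatty acid arm summed to 599 and 404 CPM in KO and WT at day 35, and to 806 and 664 CPM at day 25. The fatty acid sums were higher in KO on each day, by a larger ratio than the one between the sterol gene sums. The sterol gene sums were near equal at day 35 and lower in KO at day 25. Scd1 alone held 142 and 49.6 CPM of the fatty acid sums in KO and WT at day 35, and 269.6 and 156 CPM at day 25. At day 25 Elovl6, Fads1 and Fads2 lay below WT in KO, and the other genes of the arm above.

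**Figure D1:**
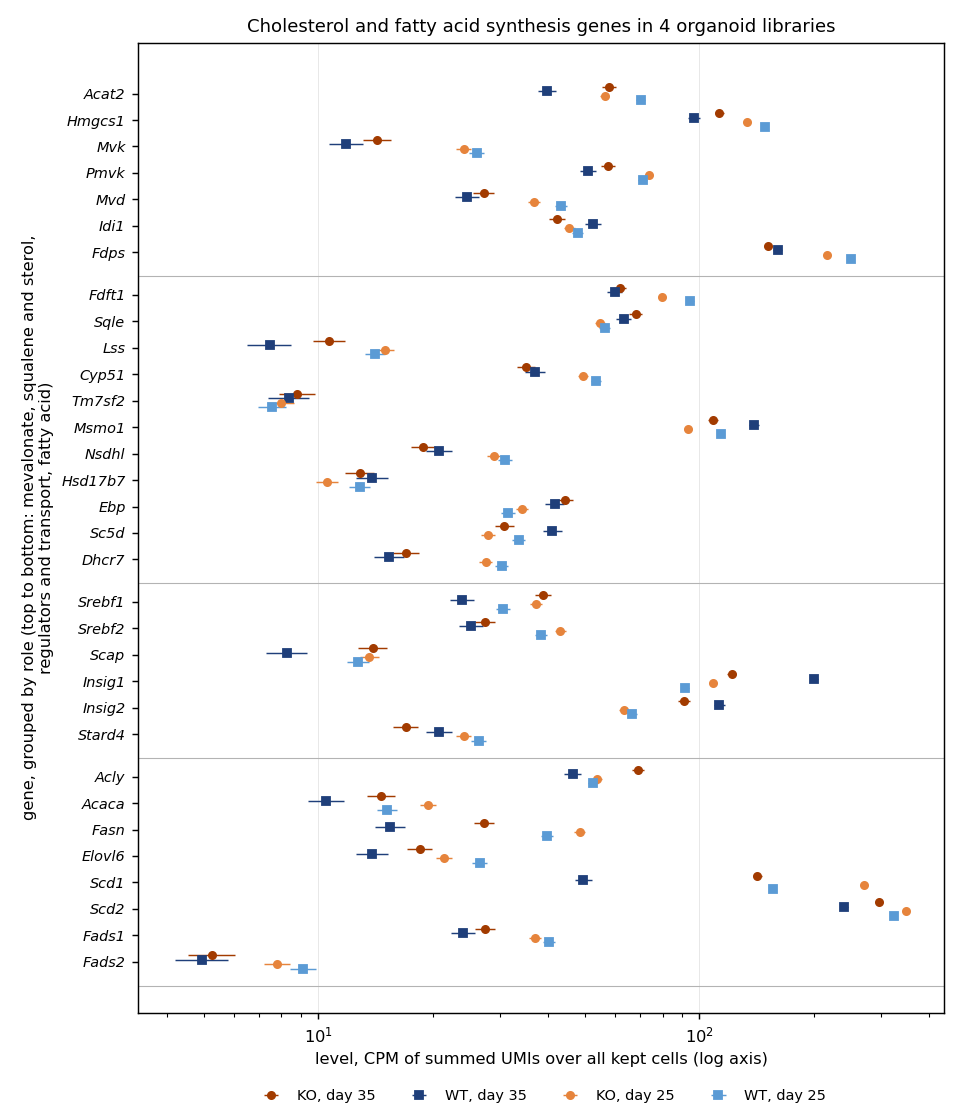
Level of each gene over all kept cells of 4 libraries, in CPM of summed UMIs on a log axis, with exact 95% counting intervals (bars). Scd1 has the widest spread, with WT at day 35 at 49.6 CPM and KO at day 25 at 269.6 CPM, and Insig1 is highest in WT at day 35, at 199.6 CPM.

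At day 35, 4 of the 32 genes were called higher and 1 lower in KO, against 18.5% of all genes called higher and 4.76% lower. None of the 18 sterol genes was called: 11 lay above and 7 below equality, with a median log2 ratio of 0.080, against 0.23 over all genes. All 8 genes of the fatty acid arm lay above equality, with a median of 0.45. The all-gene ratio was shifted at day 35: scaling by the median of ratios lowers each log2 ratio by 0.23 and leaves 2 genes higher (Fasn and Scd1) and 2 lower (Sc5d and Insig1), with a median over the 32 genes of -0.092, against 10.4% of all genes higher and 7.87% lower under that scaling. At day 25 only Scd1 was called higher and no gene lower, against 4.03% and 8.62% of all genes, with a median over the 32 of -0.087.

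Among the sterol genes at day 35 the log2 ratio of KO over WT ran from -0.42 for Sc5d, a sterol desaturase, to 0.54 for Acat2, a cytosolic thiolase that makes acetoacetyl-CoA. Acat2 had 57.9 CPM in KO and 39.8 CPM in WT at day 35, and 56.3 and 70.1 CPM at day 25. Fdft1, the squalene synthase, had 61.8 and 59.9 CPM in KO and WT at day 35, and 79.9 and 94.7 CPM at day 25. Over all kept cells Acat2 was thus above WT in KO at day 35 and below it at day 25, and Fdft1 differed little at day 35. Pluripotent-like cells, not found in WT at day 35, held 38.8% of the Acat2 UMIs of KO at day 35. Outside these cells KO at day 35 had 40.9 CPM of Acat2 and 54.8 CPM of Fdft1. Msmo1, the sterol methyl oxidase, had 109 and 139 CPM at day 35, and 93.2 and 114 CPM at day 25, below WT on each day. Lss, the lanosterol synthase, had 10.7 and 7.45 CPM at day 35, and 14.9 and 14.1 CPM at day 25. No sterol gene was called on either day over all kept cells. In the fatty acid arm, Acly, which supplies cytosolic acetyl-CoA, had 69.0 and 46.5 CPM at day 35, and 54.0 and 52.6 CPM at day 25. Acaca, the acetyl-CoA carboxylase, had 14.6 and 10.5 CPM at day 35, and 19.4 and 15.2 CPM at day 25. Stard4, a sterol carrier, had 16.9 and 20.8 CPM at day 35, and 24.0 and 26.4 CPM at day 25.

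Scd1 encodes a stearoyl-CoA desaturase, which makes monounsaturated fatty acids and is abundant in fat cells. Its level was 142 CPM in KO and 49.6 CPM in WT at day 35, a log2 ratio of 1.52 (1.43 to 1.60), and 269.6 CPM in KO and 156 CPM in WT at day 25, a log2 ratio of 0.79 (0.75 to 0.82). KO lay above WT on each day. Without the adipocyte-like cells these ratios were 0.34 and 0.31, and neither was called. The day 25 call was also lost with all deposited barcodes (0.36), and the filter had left out 36 of 140 adipocyte-like barcodes in KO and 72 of 155 in WT. Within adipocyte-like cells of day 25 Scd1 had 7620 CPM in KO and 5098 CPM in WT, a log2 ratio of 0.58 that was not called.

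The other genes called at day 35 were Fasn, at 27.2 CPM in KO and 15.4 CPM in WT, and the regulators Srebf1, Scap and Insig1. Srebf1, which encodes the SREBP that favours fatty acid genes, reached 38.9 CPM in KO and 23.8 CPM in WT, a log2 ratio of 0.71 (0.58 to 0.84). Scap was at 13.9 CPM in KO and 8.26 CPM in WT. The calls of Srebf1 and Scap were lost with the median of ratios. Insig1 was lower in KO, at 121 CPM, against 199.6 CPM in WT, a log2 ratio of -0.72 (-0.77 to -0.66). At day 35 Insig1 was also called lower in KO in skeletal muscle-like, fibroblast-like, keratinocyte-like and other otic epithelium-like cells, with log2 ratios of -1.14 to -0.86. In hair cell-like cells it was called higher, at 243 CPM in KO and 135 CPM in WT.

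The levels of the 2 arms by cell type were ordered differently. The fatty acid arm was highest in adipocyte-like cells, at 8079 CPM in KO at day 35, 10609 CPM in KO at day 25 and 7769 CPM in WT at day 25. Astrocyte-like cells came next in each of these libraries, at 1433, 2224 and 1234 CPM. The sterol gene sums were compared among types with at least 50 cells, and hair cell-like cells. At day 35 the KO sum was highest in the hair cell-like type (2787 CPM in 34 cells, against 2190 CPM in adipocyte-like cells). It rested largely on Fdps (144 UMIs), Msmo1 (70 UMIs) and Hsd17b7 (64 UMIs). Of the other sterol genes, Hmgcs1, Sqle and Nsdhl lay below their adipocyte-like level there, and Idi1 and Tm7sf2 above. At day 25 the sum was highest in astrocyte-like cells in KO (3976 CPM) and in adipocyte-like cells in WT (3019 CPM). Oligodendrocyte lineage-like cells, too few to be compared, had 3434 CPM in KO at day 35 (29 cells), 3218 CPM in KO at day 25 (29 cells) and 2871 CPM in WT at day 25 (31 cells). WT at day 35 had 7 adipocyte-like cells, and among its compared types the sums lay in a narrower range, from 726 CPM in astrocyte-like to 1370 CPM in hair cell-like cells for the sterol genes.

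**Figure D2:**
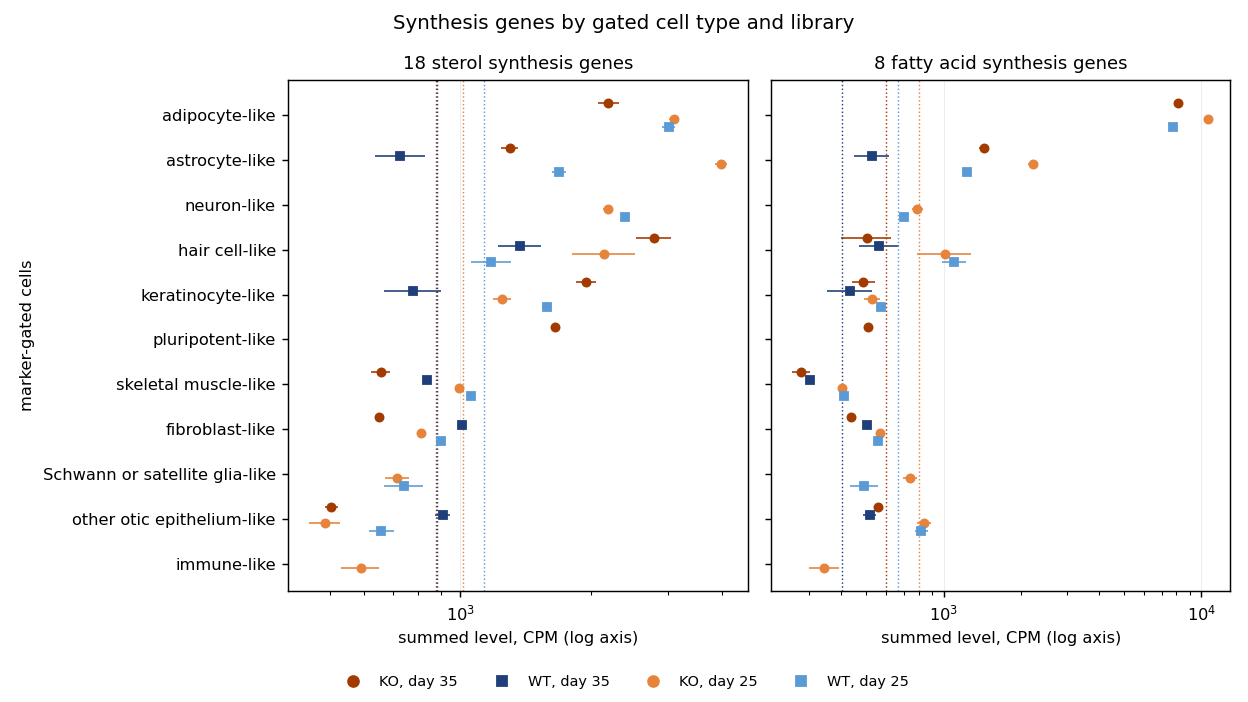
Summed CPM (log axis) of the 18 sterol genes and the 8 fatty acid genes in marker-gated cells of each library, with exact 95% counting intervals; dotted lines are the sums over all kept cells of the library in the same colour. Types with under 50 cells in a library are left out, except hair cell-like cells. Adipocyte-like cells stand alone in the fatty acid panel, between 7769 and 10609 CPM.

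In adipocyte-like cells 25 of the 32 genes were called higher than in the other cells of the KO day 35 library, against 7.68% of all genes. At day 25 the counts were 28 genes in KO, against 12.5% of all genes, and 26 genes in WT, against 10.4%. In all 3 libraries 23 genes were called higher. Of these adipocyte-like cells 41.9% in KO at day 35, and 85.6% in KO and 77.1% in WT at day 25, held markers of a further list. Their median depths were 7413.5, 17596 and 12048 UMIs, against 4408, 6340 and 6145 UMIs in other cells, and the part of doublets was not tested. Scd1 had 5896 CPM there and 52.6 CPM in other cells in KO at day 35, 7620 and 97.2 CPM in KO at day 25, and 5098 and 78.4 CPM in WT at day 25. Pmvk, the phosphomevalonate kinase, had 354, 533 and 517 CPM in these cells of the same 3 libraries, against 53.0, 62.8 and 64.0 CPM in the others. Insig1 had 566, 770 and 596 CPM, against 115, 93.0 and 83.9 CPM. Srebf2, which encodes the SREBP that favours sterol genes, was called lower in KO at day 25, at 26.9 CPM, against 43.6 CPM in other cells. It was not called in KO at day 35 (15.4 and 27.6 CPM) or in WT at day 25 (40.6 and 38.3 CPM).

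Adipocyte-like cells were 1.10% and 0.0857% of kept cells in KO and WT at day 35, and 0.929% and 0.850% at day 25. They held 63.5% and 16.2% of all Scd1 UMIs in KO and WT at day 35, and 64.8% and 50.6% at day 25. Of the sterol gene UMIs they held 3.80% and 0.293% at day 35, and 7.01% and 4.12% at day 25. Outside them, Scd1 was at 0.892% and 0.565% of its adipocyte-like level in KO and WT at day 35, and at 1.28% and 1.54% at day 25. The adipocyte marker Fabp4, a fatty acid binding protein gene, was at 0.776% and 0.595%, and at 2.34% and 3.00%, of its own. At day 25 the other markers of that list lay below Scd1. They ran from 0.414% (Pck1) to 1.21% (Plin1) in KO and from 0.378% (Pck1) to 1.36% (Plin1) in WT. At day 35 they ran from 0.131% (Cidec) to 1.71% (Plin4) in KO. In WT at day 35 they ran from 0.0158% (Cidec) to 0.442% (Retn), with Pck1 not detected. The part of free RNA in the Scd1 level of other cells was not tested.

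Neuron-like cells of day 25 had 20 of the 32 genes called higher than other cells in KO and 19 in WT, 18 of them in both, against 27.6% and 28% of all genes. Hmgcs1 reached 362 and 414 CPM in neuron-like cells of KO and WT, against 127 and 134 CPM in other cells. Acat2 reached 248 and 273 CPM, against 51.1 and 59.4 CPM. Srebf1 was called lower in both genotypes. Scd1 was at 64.7 and 68.9 CPM in neuron-like cells of KO and WT, and was called lower than in other cells with the adipocyte-like cells among them; outside adipocyte-like cells its level was 97.2 and 78.4 CPM.

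Pluripotent-like cells, present in number only in KO at day 35 (316 cells), had 16 genes called higher and 5 lower than other cells, against 23.7% and 47.4% of all genes. Acat2 (168 and 40.9 CPM) and Elovl6, a fatty acid elongase (55.3 and 12.7 CPM), were among the higher genes. The lower genes were Srebf1, Scap, Insig2, Scd1 and Scd2. The other cells include the adipocyte-like cells, and Scd1 was at 39.1 CPM in pluripotent-like cells and at 52.6 CPM over all cells outside adipocyte-like ones. In the 50 immune-like cells of KO at day 25 no gene was called higher and 15 lower, against 18.9% of all genes called lower, with Hmgcs1 at 44.2 CPM and at 134 CPM in other cells.

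Skeletal muscle-like cells had Fasn, Scd1 and the desaturase gene Fads1 called lower than in other cells, adipocyte-like cells included, in all 4 libraries. Scd1 was at 28.4 and 28.5 CPM there in KO and WT at day 35, and at 54.5 and 62.5 CPM at day 25, against 52.6, 41.6, 97.2 and 78.4 CPM over all cells outside adipocyte-like ones. Other otic epithelium-like cells had Srebf1 called higher and Cyp51, the lanosterol demethylase, called lower in all 4. Srebf1 was at 76.9 and 37.5 CPM there in KO and WT at day 35 and at 105 and 88.1 CPM at day 25, against 31.5, 22.6, 36.3 and 29.4 CPM in the other cells of these libraries in the same order. Astrocyte-like cells had Tm7sf2, a sterol reductase gene, and the desaturase gene Fads2 called higher in all 4.

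Hair cell-like cells had 10 and 6 of the 32 genes called higher than other cells in KO and WT at day 35, against 9.18% and 12.4% of all genes. At day 25 these were 11 and 6 genes, against 8.73% and 15.9%. Hsd17b7 and Srebf2 were called higher in all 4 libraries. Scd1 was called lower in all 4 against other cells with adipocyte-like cells among them, but without mixed-marker cells no library kept that call and the direction turned in WT at day 25 (0.50). In hair cell-like cells Scd1 was at 49.8 and 17.97 CPM in KO and WT at day 35 (8 and 4 UMIs), and at 132 and 47.0 CPM at day 25 (9 and 14 UMIs). In hair cell-like cells Hsd17b7 had 398 CPM in KO (64 UMIs in 34 cells) and 256 CPM in WT (57 UMIs in 52 cells) at day 35, and 191 CPM in KO (13 UMIs in 10 cells) and 128 CPM in WT (38 UMIs in 19 cells) at day 25. Other cells of these libraries had 11.2, 12.1, 10.4 and 12.4 CPM. The log2 ratios over other cells were 5.15, 4.41, 4.20 and 3.37, so that hair cell-like cells lay above the other cells in every library. A UMI was found in 76.5%, 51.9%, 70% and 68.4% of hair cell-like cells, and in 5.38%, 4.17%, 6.83% and 7.78% of other cells. Median depths of hair cell-like and other cells were 4104 and 4421 UMIs, 3142.5 and 3088.5, 6572 and 6371, and 10912 and 6164. Srebf2 had 87.1, 58.4, 132 and 77.3 CPM in hair cell-like cells, against 27.2, 24.9, 43.1 and 38.2 CPM in other cells.

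**Figure D3:**
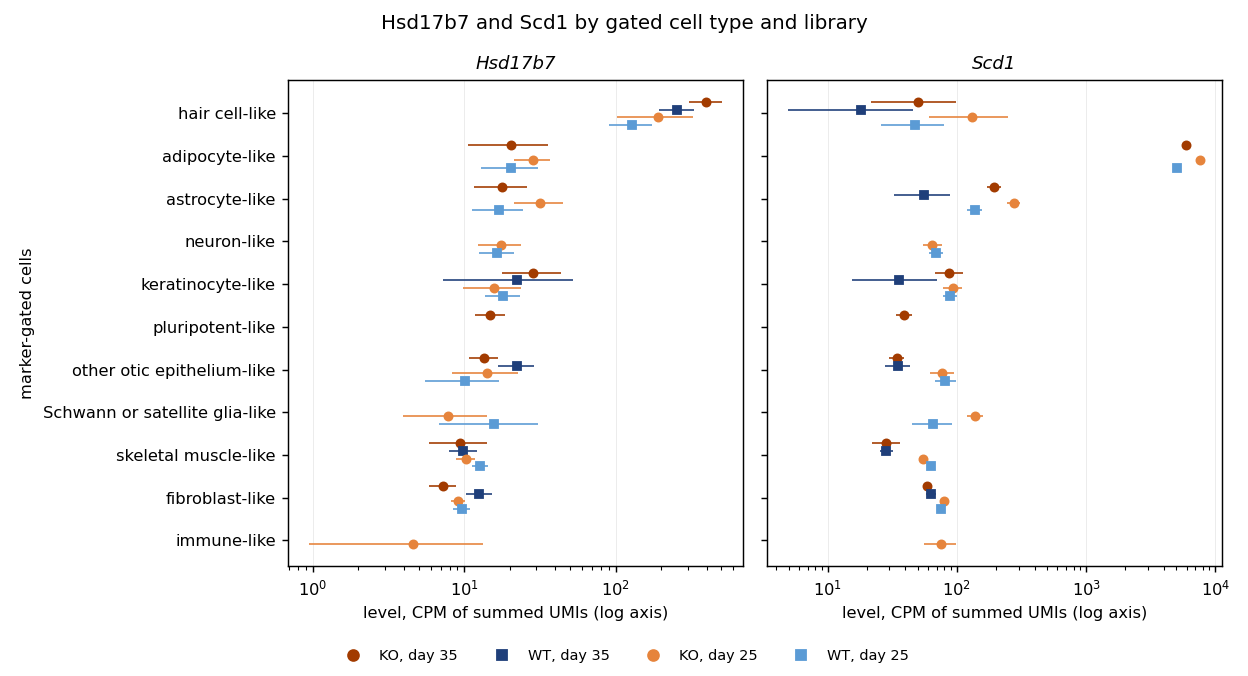
Level of Hsd17b7 and Scd1 in marker-gated cells of each library, in CPM on a log axis with exact 95% counting intervals; types with under 50 cells in a library are left out, except hair cell-like cells. Hsd17b7 is at 128 to 398 CPM in hair cell-like cells, and Scd1 at 5098 to 7620 CPM in adipocyte-like cells.

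KO and WT were then compared within cell types, where the sterol genes went in different directions. In astrocyte-like cells the median log2 ratio of the sterol genes was 0.54 at day 35 and 1.24 at day 25, and in hair cell-like cells 0.99 and 0.73. The hair cell-like medians cover only part of the sterol genes. Of all 32 genes, 13 at day 35 and 16 at day 25 had at least 20 UMIs in hair cell-like cells of both libraries together. At day 35 the sterol genes among them were Acat2, Hmgcs1, Pmvk, Idi1, Fdps, Fdft1, Sqle, Msmo1 and Hsd17b7. At day 25 Cyp51 and Dhcr7 were added and Sqle was left out. In keratinocyte-like cells the median of the sterol genes was 1.42 at day 35 and -0.36 at day 25. In other otic epithelium-like cells it was -0.59 and -0.38, and in fibroblast-like cells -0.56 and -0.15. Medians over all genes in these comparisons lay between -0.04 and 0.23.

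**Figure D4:**
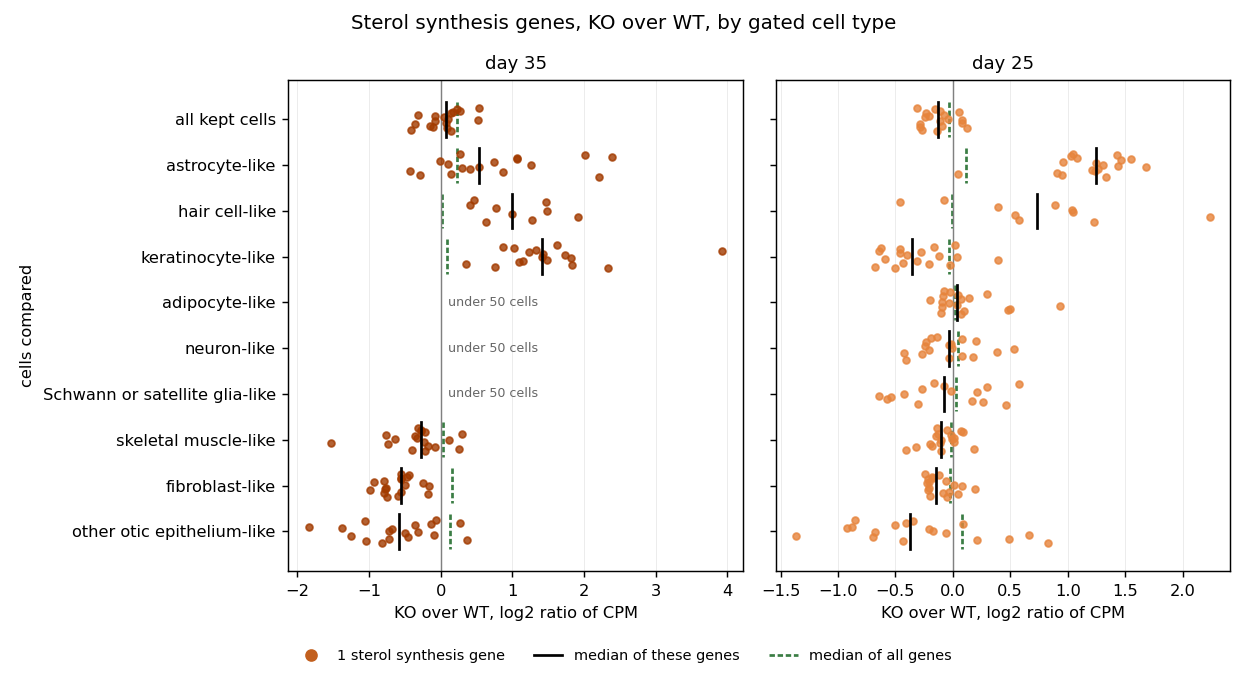
Log2 ratio of CPM, KO over WT, of each sterol gene with at least 20 UMIs (points) in all kept cells and in gated cell types, at day 35 (left) and day 25 (right), with the median of these genes (black) and of all genes (green, dashed). Astrocyte-like cells at day 25 have all 18 points above equality, and fibroblast-like cells at day 35 have all 18 below.

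Astrocyte-like cells of KO had 8 of 20 measured genes called higher and none lower at day 35 (250 KO and 59 WT cells), against 17.3% of all genes called higher. At day 25, 26 of 31 were called higher and none lower (129 KO and 202 WT cells), against 10.7%. The UMI minimum is on the sum of both libraries. At day 35 these cells held 1456036 UMIs in KO and 305600 in WT, so genes high in KO passed it more easily. The all-gene share rests on the same minimum, and the remaining genes of the set were not measured for calls. Hmgcs1 had 395 CPM in KO and 98.2 CPM in WT at day 35, a log2 ratio of 2.01 (1.48 to 2.59), and 1065 CPM in KO and 395 CPM in WT at day 25, a log2 ratio of 1.43 (1.29 to 1.58). KO was thus above WT on each day. Hmgcs1, Pmvk, Fdps, Sqle, Srebf1, Scd1 and Scd2 were called higher on both days, where Fdps makes farnesyl diphosphate and Sqle is the squalene epoxidase. Scd2, the desaturase of brain, had 996 and 291 CPM in KO and WT at day 35, and 1484 and 817 CPM at day 25.

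At day 25, 17 of the 18 sterol genes were called, all but the sterol isomerase Ebp. Cyp51 had 174 CPM in KO and 54.3 CPM in WT, and Msmo1 452 and 195 CPM. With each cell thinned to 2000 UMIs, the median KO cell held 7 sterol gene UMIs and the median WT cell 2; at day 35 both medians were 1. The 8 astrocyte markers summed to 5645 and 1649 CPM in KO and WT at day 35, and to 3692 and 3475 CPM at day 25. The next list in WT at day 35 was other otic epithelium, at 1417 CPM, against 1054 CPM in KO. The part of these marker levels in the day 35 difference was not tested.

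Keratinocyte-like cells of KO had 12 of the 17 measured genes at day 35 called higher, against 10% of all genes, and only Insig1 lower. The UMI minimum is on the sum of both libraries, so genes high in the more numerous KO cells passed it more easily. The all-gene share rests on the same minimum, and the remaining genes of the set were not measured for calls. With the lower minimum used for medians, 21 of 25 genes lay above and 4 below equality. At day 25 no gene was called higher and 5 were lower (Mvk, Mvd, Cyp51, Sc5d and Stard4), against 4.53% of all genes. Fdps had 411 CPM in KO and 152 CPM in WT at day 35, and Sqle 143 and 53.6 CPM. Mvd, the mevalonate diphosphate decarboxylase, had 68.2 CPM in KO and 4.47 CPM in WT at day 35, where WT held 1 UMI (log2 ratio 3.93, 1.39 to 9.26), and 37.9 and 59.2 CPM at day 25. The 8 keratinocyte markers summed to 15537 and 5758 CPM in KO (103 cells) and WT (53 cells) at day 35, and to 7083 and 11497 CPM at day 25. On each day the library with the higher marker sum also had the higher levels of the called sterol genes, and the part of the markers was not tested.

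Hair cell-like cells of KO had 4 of 5 measured genes called higher at day 35, against 5.43% of all genes, and 3 of 6 at day 25, against 12.7%. Fdps and Msmo1 were called on both days. Fdps had 896 and 319 CPM in KO and WT at day 35, and 484 and 235 CPM at day 25. Msmo1 had 435 and 180 CPM at day 35 (70 and 40 UMIs), and 396 and 84.0 CPM at day 25 (27 and 25 UMIs). Hsd17b7 was also called higher at day 35 (log2 ratio 0.64, 0.10 to 1.18), which turned to -0.13 with cells thinned to 2000 UMIs. Markers of a further list were held by 29.4% and 38.5% of hair cell-like cells in KO and WT at day 35, and by 40% and 78.9% at day 25; their part was not tested.

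In other otic epithelium-like cells the direction was the opposite: 9 of 18 sterol genes were called lower in KO at day 35, against 3.35% of all genes, and 4 of 12 measured at day 25, against 3.66%. Idi1, Fdps and Msmo1 were lower on both days and Scap higher, where Idi1 is the isopentenyl diphosphate isomerase. Idi1 had 28.9 CPM in KO and 103 CPM in WT at day 35, a log2 ratio of -1.84 (-2.12 to -1.55), and 20.1 and 36.8 CPM at day 25. Msmo1 had 68.8 and 163 CPM at day 35, and 34.3 and 88.1 CPM at day 25. Srebf1 was called higher at day 35, at 76.9 CPM in KO and 37.5 CPM in WT. Skeletal muscle markers summed to 186 and 546 CPM in these cells of KO and WT at day 35, and to 328 and 350 CPM at day 25, and their part was not tested.

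Fibroblast-like cells, the most numerous type, had 29 of the 32 genes below equality in KO at day 35. Of the sterol genes 8 of 18 were called lower, against 3.34% of all genes. Msmo1 had 71.4 CPM in KO and 141 CPM in WT, and Fdps 91.9 and 176 CPM. Skeletal muscle markers in these cells summed to 282 CPM in KO and 780 CPM in WT, and 7.97% and 24.4% of them held markers of a further list. The part of these in the difference was not tested.

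Between the days, 20 of the 32 genes in KO and 23 in WT had a lower level at day 35. The median over all genes was below equality in WT as well, and above it in KO. Over all kept cells, KO at day 35 had no gene called higher and 6 lower than KO at day 25, against 21.9% and 13.3% of all genes, and WT at day 35 had 2 higher and 15 lower than WT at day 25, against 14.4% and 25%. The median log2 ratio over the 32 genes was -0.30 in KO and -0.55 in WT, and over all genes 0.14 and -0.14. With the median of ratios, which moves these ratios by 0.14 in opposite directions, 11 genes were lower in KO and 10 in WT, against 16.98% and 19.6% of all genes.

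Mvk, Dhcr7, Srebf2, Fasn and Scd1 were called lower at day 35 in both genotypes. Mvk, the mevalonate kinase, had 14.3 CPM at day 35 and 24.1 CPM at day 25 in KO, and 11.8 and 26.0 CPM in WT. Srebf2 had 27.4 and 43.2 CPM in KO, and 25.2 and 38.4 CPM in WT. Fasn had 27.2 and 48.4 CPM in KO, and 15.4 and 39.8 CPM in WT. In KO the direction of Scd1 turned without the mixed-marker cells (0.40) and with a stricter cell filter of 1000 genes and 5% mitochondrial UMIs (0.097).

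Both genes called higher over all kept WT cells were INSIG genes. Insig1 reached 199.6 CPM at day 35, against 91.8 CPM at day 25 in WT (log2 ratio 1.12), and 121 and 109 CPM in KO, which was not called. Insig2, the other anchor of SCAP, had 113 and 66.6 CPM in WT (log2 ratio 0.76), and 91.1 and 63.2 CPM in KO, which was not called (0.53). Within gated cell types Insig2 was called higher at day 35 in 8 of 11 comparisons and lower in none, and Fasn lower in 9 of 12 and higher in none. These were the largest counts in each direction among the genes of the set. Dhcr7 was close, called lower in 8 of 10 and higher in 1, as was Srebf2, lower in 7 of 11 and higher in none. How many of all genes reach such counts was not tested. Ungated cells were not included in these counts.

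**Figure D5:**
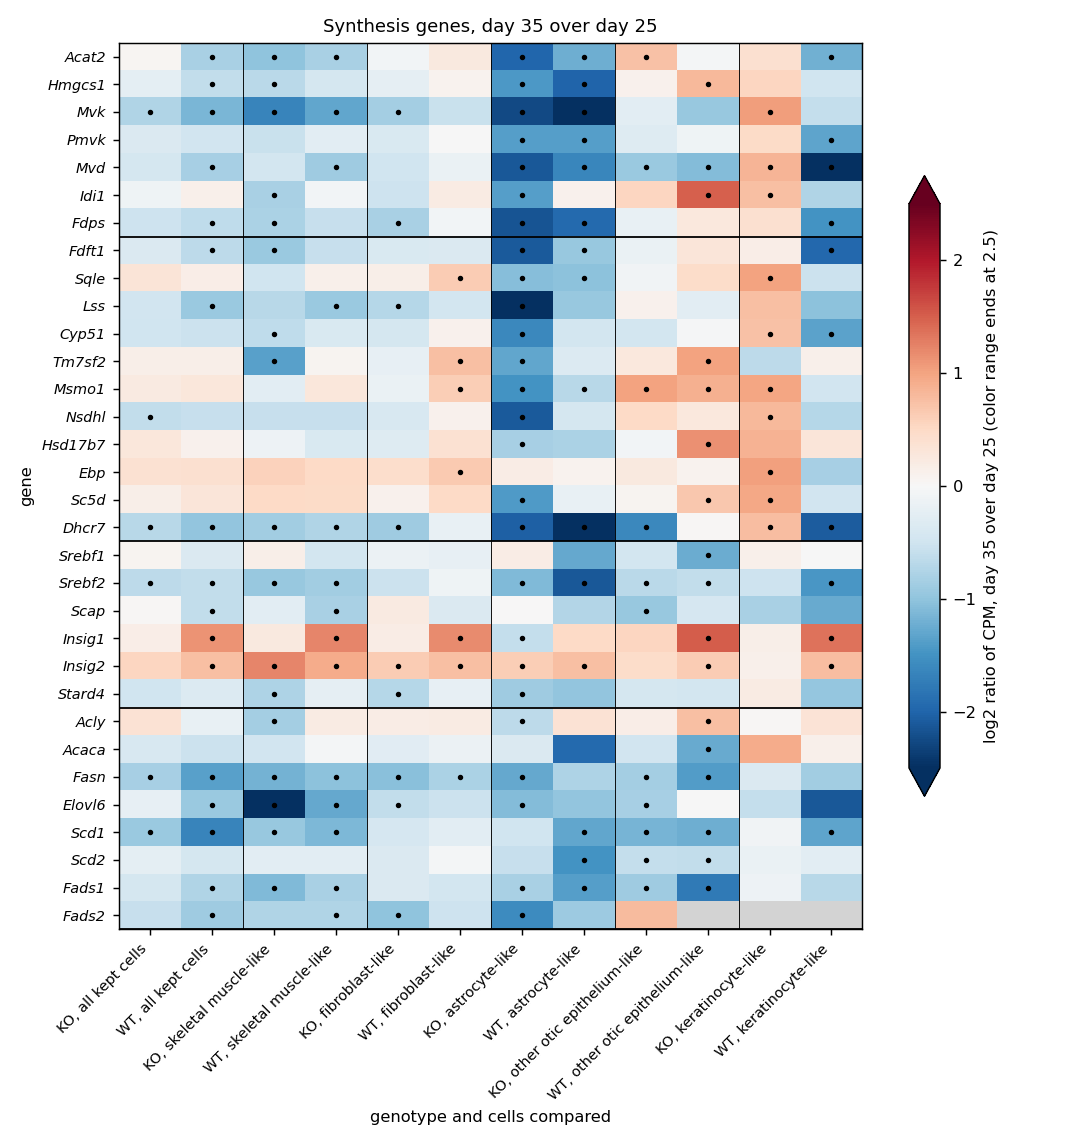
Log2 ratio of CPM, day 35 over day 25 (red higher, blue lower; color ends at 2.5 on each side), for each gene (32 lines) in KO and WT over all kept cells and in 5 gated types; dots mark called genes, and grey cells had under 20 UMIs. The Insig2 line is red in all 12 columns, and the astrocyte-like columns hold 25 genes called lower in KO and 14 in WT.

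In astrocyte-like cells of KO 25 genes were called lower at day 35, against 15.5% of all genes, and in WT 14, against 21%, with 12 in both genotypes. Dhcr7, the last reductase of cholesterol synthesis, had 30.2 and 125 CPM at day 35 and day 25 in KO, and 6.54 CPM (2 UMIs) and 49.5 CPM in WT. Insig2 was called higher in both, at 74.9 and 48.6 CPM in KO and at 98.2 and 57.9 CPM in WT. The astrocyte markers summed to 5645 CPM at day 35 and 3692 CPM at day 25 in KO, and to 1649 and 3475 CPM in WT, so they went in opposite directions in the genotypes. Cycling cells were 1.6% of astrocyte-like cells at day 35 and 13.2% at day 25 in KO, and 1.69% and 6.44% in WT. The median log2 ratio of the sterol genes was -1.55 in KO and -0.95 in WT, and -1.61 and -0.85 without cycling cells, where Insig2 in KO was no longer called. The part of the marker levels was not tested.

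In skeletal muscle-like cells 16 genes were called lower at day 35 in KO and 12 in WT, against 14.1% and 20.8% of all genes. Cycling cells were 2.39% of these at day 35 and 20.1% at day 25 in KO, and 2.81% and 17.8% in WT. The muscle markers summed to 29537 and 16871 CPM in KO, and to 19578 and 15371 CPM in WT. The median log2 ratio of the sterol genes was -0.65 in KO and -0.41 in WT, and -0.57 and -0.40 without cycling cells. The part of the marker levels was not tested. In both genotypes Acat2, Mvk, Dhcr7, Srebf2, Fasn, Elovl6, Scd1 and Fads1 were lower and Insig2 higher. Elovl6 had 3.39 CPM (8 UMIs) at day 35 and 20.3 CPM at day 25 in KO, and 10.9 and 26.6 CPM in WT. Msmo1 went the other way in other otic epithelium-like cells, where it was called higher at day 35 in both genotypes, at 68.8 and 34.3 CPM in KO and at 163 and 88.1 CPM in WT. In hair cell-like cells Hsd17b7 was called higher at day 35 in both genotypes (398 and 191 CPM in KO, and 256 and 128 CPM in WT), though its log2 ratio turned to -0.31 in KO with the stricter cell filter.

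Several sterol genes had higher levels in dividing cells. Cycling cells, those with at least 3 of 8 cycling genes, were 6.73% and 2.45% of kept cells in KO and WT at day 35, and 12.1% and 11.6% at day 25. Compared with the other cells of the same library, 17 and 15 of the 32 genes were called higher in KO and WT at day 35, and 8 and 5 at day 25, against 23.1%, 15.2%, 14.2% and 10.9% of all genes. Of the 18 sterol genes 13 and 11 were higher at day 35, and 6 and 5 at day 25, none lower. Their median log2 ratio was 0.96 and 0.66 at day 35, and 0.54 and 0.39 at day 25. Fdps had 407 CPM in cycling and 103 CPM in other cells of KO at day 35, and 281 and 157 CPM in WT. Cycling cells were deeper, with median UMIs of 11447 against 4285 and 3550.5 against 3073 in KO and WT at day 35, and with cells thinned to 2000 UMIs the sterol medians were 1.12, 0.79, 0.59 and 0.45 in the same order of libraries. Of the 316 pluripotent-like cells of KO at day 35, 95.9% were cycling. Without pluripotent-like cells the median in KO at day 35 was 1.07.

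Genes around the pathway were looked at in 4 lists over all kept cells. Of 12 genes of sterol export, esterification and lysosomal release, 2 were called higher in KO at day 35 (Abca1 and Abcg1, both sterol exporters) and none at day 25, a share at day 35 near the 18.5% of all genes. Of 13 other lipogenic and sterol-responsive genes, 1 (Acacb) was called higher in KO at day 35 and none at day 25. Of the 8 cycling genes 7 were called higher in KO at day 35, with a list median of 1.46. That library held 316 pluripotent-like cells, of which 95.9% were cycling, and WT at day 35 had no such cells. Their part in the cycling gene levels was not tested. With time, Fabp5, a fatty acid binding protein gene, was called lower in both genotypes, at 359.8 and 1015 CPM at day 35 and day 25 in KO and at 301 and 1212 CPM in WT. Acadl, a fatty acid oxidation gene, was lower in both as well, at 30.0 and 62.3 CPM in KO and at 35.2 and 64.3 CPM in WT, as were the cycling genes Cdk1, Mki67 and Ube2c.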

How the data were processed

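The authors deposited 1 matrix of raw UMI counts per library, in whole numbers and not scaled. Cell Ranger 2.1.0, Seurat 2.3.1, bcl2fastq and R 3.5.1 appear in the submitters' processing notes, with mm10 and GRCm38 as builds. Whether counting used strand, and how it treated reads with several matches, is not given in the sources used here. In the GRCm38 annotation (27645 of 27998 identifiers matched) 9 of the 32 genes overlap another counted gene (Mvd, Fdps, Fdft1, Lss, Cyp51, Tm7sf2, Srebf1, Acaca and Elovl6), and Acat2, Scd1 and Scd2 have close paralogs, so their counts may be shared.

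Samples were grouped by genotype and day from the labels. The genes, marker lists, gates and other lists were chosen with earlier results of these data known. Doublets were not removed. Counts were summed per library and cell type in Python 3.11.15 with numpy 2.4.6, scipy 1.17.1 and pandas 2.3.3, and drawn with matplotlib 3.10.9. Levels have exact Poisson intervals and ratios exact conditional binomial intervals, with a count of 0 set to a floor of 3 counts; the interval code was tested on simulated data. A median covers genes with at least 20 UMIs. Types were compared with at least 50 cells in both libraries, hair cell-like cells always. Of the other lists, up to 3 genes per direction were named where both comparisons of a kind were called, by the interval bound nearest equality; Abca1, Abcg1 and Acacb were named after their values were seen. The files held no further value columns (0).

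Alternatives were all barcodes, a stricter cell filter (1000 genes, 5% mitochondrial), other scalings, thinning to 2000 UMIs, other gates, folds and UMI minimums, and leaving out cell types or mixed-marker cells. Total UMIs per library were 40518939 and 35749960 in KO and WT at day 35, and 85808118 and 75064434 at day 25. Some genes of the pathway and of the other lists are not reported here.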

Additional observations from a re-analysis of the deposited data

Results flagged for a closer look

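In keratinocyte-like cells Mvd and Cyp51 were called higher in KO at day 35 and lower in KO at day 25. The log2 ratio of Mvd was 3.93 at day 35 and -0.64 at day 25, a difference of 4.58, and that of Cyp51 was 1.48 and -0.59, a difference of 2.07. The differences between days were not tested, since each rests on 1 library per genotype and day. WT at day 35 held 1 Mvd and 6 Cyp51 UMIs in 53 cells, so both genes passed the UMI minimum mainly through KO. The keratinocyte markers of WT at day 35 summed to 5758 CPM, against 15537 CPM in KO.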

How the results depend on the processing

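No paired analysis was possible because each group has 1 library. In KO over WT at day 25, 0 genes were called higher with all barcodes, the stricter filter, thinning, mean cell CPM, a 2-fold limit, or without mixed-marker or adipocyte-like cells. At day 35, 7 (stricter filter), 2 (median of ratios), 8 (equal weight per type) and 1 (2-fold) were called higher, and 2 (stricter filter), 2 (median of ratios), 3 (without cycling cells) and 0 (2-fold) lower. In KO at day 35 over day 25, 2 (stricter filter, without mixed-marker cells) or 1 (thinning, mean cell CPM, without pluripotent-like or cycling cells) were called higher. There, 12 (without mitochondrial and ribosomal genes, or without pluripotent-like cells), 11 (median of ratios), 3 (without mixed-marker cells), 16 (equal weight), 10 (without cycling cells) and 0 (2-fold) were lower. In WT the 2-fold limit left 1 higher and 3 lower.

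Equal weight gave medians over the 32 genes of 0.35 in KO over WT at day 35, 0.19 at day 25 (sterol genes 0.17, reversed) and -0.57 in KO with time; the median of ratios gave -0.092 at day 35. The gate of 5 markers gave sterol medians at day 25 of 1.44 in astrocyte-like and -0.53 in keratinocyte-like cells. Thinning gave -0.99 in other otic epithelium-like cells at day 25, 1.34 in neuron-like over other cells (KO, day 25) and 1.54 in adipocyte-like over other cells (KO, day 35).

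Single genes turned direction in hair cell-like cells: Hsd17b7 in KO over WT at day 35 (-0.13, thinning), Fdps (-0.41) and Hsd17b7 (-0.31) in KO and Msmo1 (-0.42) in WT with time under the stricter filter, and Scd1 over other cells in WT at day 25 (0.50, without mixed-marker cells). Over all kept cells Scd1 in KO with time turned to 0.097 (stricter filter) and 0.40 (without mixed-marker cells). Of the other values for single genes, 3379 stayed the same, 221 lost and 112 gained a call. The causes were not tested. The settings that leave out adipocyte-like or skeletal muscle-like cells, the gate of 5 markers, and both settings of the comparison of cycling with other cells were chosen after seeing the data. Depth limits the hair cell-like values, which rest on 10 to 52 cells, and WT at day 35, where 707 kept cells had under 2000 UMIs and were left out of thinning.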
